A study of Homo sapiens with 12 samples.

Results

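Hyaluronan is a long unbranched sugar chain of glucuronate and N-acetylglucosamine that fills the space around cells. Its chains are built at the plasma membrane by hyaluronan synthases from UDP-sugars made in the cytosol, cut by hyaluronidases, and bound by receptors that pass signals into the cell. A set of 8 genes of this system was followed in prostate cancer lines treated with palbociclib, an inhibitor of the cell-cycle kinases CDK4 and CDK6: the synthases HAS2 and HAS3, the precursor enzyme UGDH, the hyaluronidases HYAL2 and HYAL3, the hyaluronan-degrading protein CEMIP, and the receptors CD44 and HMMR. The 8 genes were listed by name and found by gene name in the DU145 table and by the same gene identifier in the C4-2 table, out of 56747 genes that both tables hold. HAS3 was put on the list because it was among the largest falls with palbociclib in the C4-2 libraries. The C4-2 contrast of these genes is therefore given as a description with no p-value, and the DU145 contrast is tested.

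The labels give 12 RNA-seq libraries of 4 groups with 3 libraries each, which are C4-2 with palbociclib, C4-2 with DMSO (the solvent control), DU145 with palbociclib and DU145 with DMSO. As background, C4-2 derives from the androgen-sensitive LNCaP line, and DU145 was established from prostate cancer that had spread to the brain and carries no functional RB1 protein. The culture medium was RPMI-1640 with 10% FBS in every group, and the sources used here give neither the dose nor the duration of the drug. One C4-2 DMSO column, replicate 3, held 0 in every row and was left out. The values below therefore rest on 11 libraries, of which 3 with palbociclib and 2 with DMSO carry the C4-2 label.

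Library totals were 2608851 to 3489659 counts under the C4-2 label and 16108999 to 16674393 under the DU145 label, which are the sums behind each CPM, a count scaled to the library total. A library with 0 counts of a gene allows up to 3 counts, which is 0.86 to 1.15 CPM in C4-2 and 0.18 to 0.186 CPM in DU145 (counting error only). Of 10 luminal prostate markers, KLK3, KLK2, ACP3 and FOLH1 were at 0 in all 5 libraries labelled C4-2, which goes against that label, and KLK3, KLK2, FOLH1 and TMPRSS2 were at 0 in all 6 labelled DU145. The 11 fibroblast and mesenchymal markers summed to 24700 to 25000 CPM with palbociclib and 27100 CPM in both DMSO libraries labelled C4-2, and to 337 to 351 CPM with palbociclib and 389 to 405 CPM with DMSO in DU145. FN1 made up most of the C4-2 sum, at a mean of 19700 CPM. COL6A3, SPARC, VIM and COL1A1 had means of 2570, 1760, 1500 and 220 CPM there. COL1A2, COL3A1, DCN, LUM, PDGFRB and THY1 had means of 0.118 to 2.69 CPM there. VIM made up most of the DU145 sum, at a mean of 279 CPM. The groups are therefore called by their labels. Values after ± are SDs over the libraries of a group. Within a group, the C4-2 libraries differed by 1.14 to 1.18 times counting noise (chi-square per degree of freedom) and DU145 replicates 1 and 2 by 2.36 and 2.37 times, whereas DU145 pairs that held a replicate 3 differed by 5.41 to 8.34 times.

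The promoters of 2 members are shown before the values, that of HAS3 because it had the largest difference and that of HMMR because it alone held any of the letters searched. RefSeq windows on GRCh38.p14, from 250 bases before to 50 bases after the annotated start, were found for 7 of the 8 genes used here and are printed up to the start. Capitals mark matches to the CHR (TTTGAA or TTCGAA), an element of cell-cycle gene promoters, and to the CCAAT box (CCAAT, or ATTGG on the other strand). The HAS3 stretch is chr16:69107290-69107539 and the HMMR stretch is chr5:163460382-163460631, both on the plus strand and written 5′ to 3′. Both lie inside the gene models used for the lengths, which start at 69105564 for HAS3 and at 163460203 for HMMR. The letters before those gene model starts were not searched.
HAS3: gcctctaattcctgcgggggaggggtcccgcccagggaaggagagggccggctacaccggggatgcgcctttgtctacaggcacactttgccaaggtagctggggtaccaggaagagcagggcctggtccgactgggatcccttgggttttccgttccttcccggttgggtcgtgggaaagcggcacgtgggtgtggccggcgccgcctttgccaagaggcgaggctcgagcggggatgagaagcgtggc
HMMR: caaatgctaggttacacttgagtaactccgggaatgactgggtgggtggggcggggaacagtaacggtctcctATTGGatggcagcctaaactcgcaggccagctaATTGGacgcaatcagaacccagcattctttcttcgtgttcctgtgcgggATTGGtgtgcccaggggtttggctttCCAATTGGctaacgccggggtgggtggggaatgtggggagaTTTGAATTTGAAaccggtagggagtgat
The HMMR window held a tandem pair of TTTGAA whose first bases lie at -28 and -22, counted from -1 at the last base before the start, and 5 CCAAT matches with first bases between -177 and -66. A CHR match was present in 16.4% of 35116 windows of the same length and a CCAAT match in 34.6%. E2F letters (TTTCCCGC, TTTGGCGC, TTTCGCGC or TTTGCCGC, in 3.31% of all windows) and AP-1 letters (TGAGTCA, in 4.95%) were searched on both strands and were in none of the windows of the 7 genes, and the HAS3, UGDH, CD44, HYAL2, HYAL3 and CEMIP windows held no CHR or CCAAT letters either. A match describes letters only.

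HAS3, a synthase on chromosome 16 (69105564 to 69118719 on hg38, plus strand), was the member that differed most. In the libraries labelled C4-2 it had 12.5, 11.5 and 13.0 CPM with palbociclib, against 119 and 121 CPM with DMSO, from 30 to 44 counts against 365 and 416 counts. The groups lay far apart, and the libraries of each group lay close together. The log2 fold change was -3.32 (SE 0.11), 9.98-fold lower with palbociclib and the fifth lowest of 11943 genes tested. In the libraries labelled DU145, HAS3 was a low transcript at 2.17, 3.76 and 2.34 CPM with palbociclib, against 1.86, 1.98 and 3.29 CPM with DMSO. These groups overlapped, and the change of 0.23 in log2 (SE 0.28, 95% interval -0.36 to 0.82) did not pass (edgeR adjusted p = 0.497). Without palbociclib replicate 2 the DU145 value was -0.04 (adjusted p = 0.914). CHTF8, on the opposite strand, shares 365 exon bases with HAS3, 6.9% of the HAS3 exons. It had 4 to 7 counts with palbociclib and 2 or 3 with DMSO in the C4-2 libraries. In DU145 it had 1586 to 1602 counts with palbociclib and 2149 to 2398 with DMSO and fell by 0.52 (SE 0.07, edgeR adjusted p = 3.55e-06), against 36 to 62 counts of HAS3 with palbociclib and 30 to 54 with DMSO. Whether reads of CHTF8 entered the DU145 value of HAS3 was not tested.

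HAS2, the other synthase followed, lies on chromosome 8 (121612116 to 121641390, minus strand) and makes long hyaluronan chains. Under the C4-2 label it had 10.0, 9.58 and 5.92 CPM with palbociclib, against 22.9 and 20.6 CPM with DMSO. All palbociclib libraries lay below both DMSO libraries, with a log2 fold change of -1.43 (SE 0.21). Its antisense partner HAS2-AS1, which the C4-2 counting without strand cannot separate from it where they overlap, shares 4.8% of the HAS2 exon bases. HAS2-AS1 had 8 to 15 counts with palbociclib and 9 to 16 with DMSO, a change of -0.01 (SE 0.40). In DU145 HAS2 was close to absent, with 3, 4 and 5 counts in the palbociclib libraries and 0, 1 and 0 counts in the DMSO libraries. It was too low to enter the main DU145 fit. With no filter on low counts, 0 members were called higher there and 2 lower, so HAS2 was not called higher. The ratio of summed counts, 12 against 1 and scaled by library totals, was 11.7, with a 95% counting interval of 1.74 to 502. That interval holds counting error only, whereas DU145 libraries within a group differed by more than counting noise. HAS2-AS1 in DU145 had 3 to 6 counts with palbociclib and 0 to 3 with DMSO.

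Per kilobase of gene model, the scale on which different genes can be compared, synthase transcripts summed to 4.47 ± 0.59 CPM per kb with palbociclib (SD, n = 3) and to 27.9 and 28.1 CPM per kb with DMSO in the C4-2 libraries. HAS3 made up 46.6 to 63.5% of that sum with palbociclib and 80.1 and 81.9% with DMSO. HAS2 made up 36.5 to 51.3% with palbociclib and 17.6 and 19.4% with DMSO, so its share was higher with palbociclib although its level was lower. The third synthase, HAS1, had 0 to 2 counts in each C4-2 library and 0 or 1 in each DU145 library. In DU145 the sum was 0.588 ± 0.158 CPM per kb with palbociclib and 0.455 ± 0.147 CPM per kb with DMSO (n = 3 each), a difference smaller than the spread. The tables were counted separately, so levels in one line against the other are given side by side only.

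**Figure D1:**
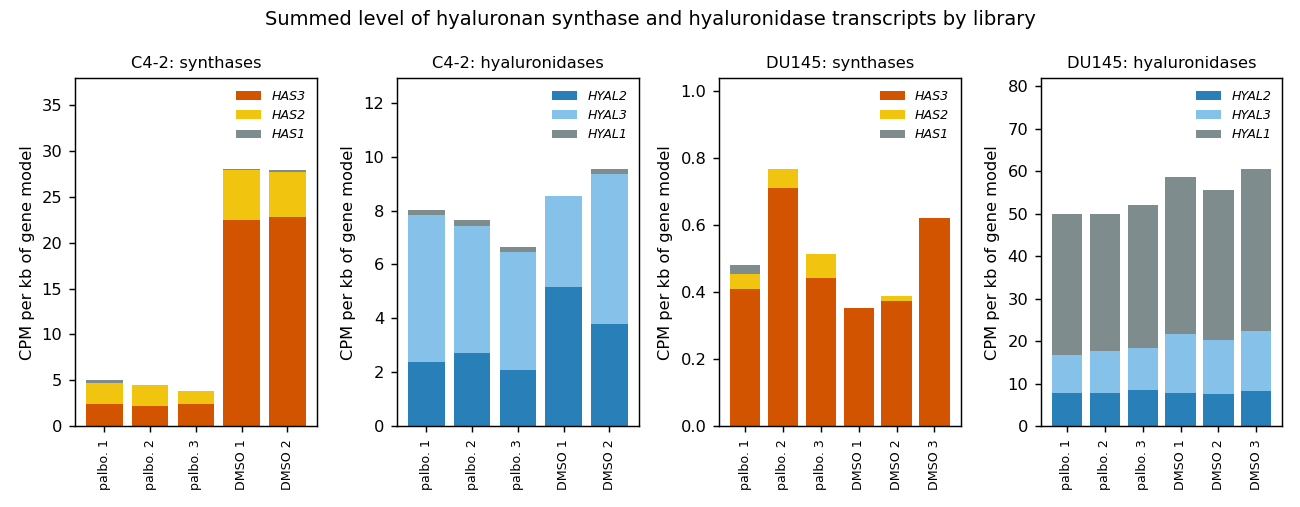
Stacked bars give the summed transcript level (CPM per kilobase of gene model) of the hyaluronan synthases HAS3, HAS2 and HAS1 and of the hyaluronidases HYAL2, HYAL3 and HYAL1, one bar per library, with palbociclib libraries left of DMSO libraries and a separate vertical scale in each panel. Synthase bars in C4-2 stand at 3.88 to 5.06 with palbociclib and at 27.9 and 28.1 with DMSO, and HYAL1 is visible as the main hyaluronidase in DU145.

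UGDH (chromosome 4, 39498755 to 39528311, minus strand) oxidises UDP-glucose to UDP-glucuronate, one of the 2 building blocks. Under the C4-2 label it had 140, 135 and 147 CPM with palbociclib and 150 and 146 CPM with DMSO, and these ranges overlapped (log2 fold change -0.12, SE 0.06). In DU145 it had 101, 90.8 and 90.2 CPM with palbociclib and 102, 98.4 and 94.4 CPM with DMSO. The DU145 change was -0.04 (SE 0.07, edgeR adjusted p = 0.63), with a 95% interval of -0.19 to 0.10. UGDH-AS1, which overlaps 7.24% of the UGDH exon bases on the opposite strand, rose in the C4-2 libraries (1.34, SE 0.39, edgeR adjusted p = 0.00404) at a low level, with 15 to 21 counts with palbociclib against 7 and 8 with DMSO.

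HYAL2, a membrane-anchored enzyme that cuts long chains at the cell surface, and HYAL3, a paralog with weak or unclear activity of its own, lie in one gene cluster on chromosome 3 (50317790 to 50322906 and 50292831 to 50299468, both minus strand). HYAL2 had 10.7, 12.3 and 9.47 CPM with palbociclib, against 23.5 and 17.2 CPM with DMSO, in the C4-2 libraries. All palbociclib values were lower, at a log2 fold change of -0.98 (SE 0.20), which was -0.74 without DMSO replicate 1. In DU145 HYAL2 stood at 35.7, 35.5 and 38.9 CPM with palbociclib and 35.6, 34.6 and 38.1 CPM with DMSO. Those groups overlapped almost fully (0.05, SE 0.08, 95% interval -0.13 to 0.23, edgeR adjusted p = 0.638).

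HYAL3 was the member that passed the test in DU145. It had 298, 330 and 332 counts with palbociclib, against 456, 415 and 465 counts with DMSO, from libraries of nearly equal totals. The groups did not overlap, and the mean fell to 19.3 ± 1.14 CPM with palbociclib, against 27.5 ± 1.52 CPM with DMSO (SD, n = 3 each). The log2 fold change was -0.48 (SE 0.10, 95% interval -0.68 to -0.28, edgeR adjusted p = 0.00031, lower in 3 of 3 libraries), and it ranged from -0.54 to -0.43 over the alternatives. In C4-2 HYAL3 had 11.1, 9.58 and 8.88 CPM with palbociclib and 6.88 and 11.3 CPM with DMSO. The DMSO libraries there lay on both sides of the palbociclib ones. The C4-2 log2 fold change was 0.09 (SE 0.25), -0.25 without DMSO replicate 1 and 0.45 without DMSO replicate 2.

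HYAL3 shares 12.2% of its exon bases with NAA80 and 2.12% with IFRD2, and HYAL2 shares 11.2% with TUSC2, all on the same strand, so reads in those stretches cannot be given to one gene. In DU145 these partners went the other way from HYAL3, since NAA80 rose by 0.28 (SE 0.10, edgeR adjusted p = 0.0273), IFRD2 by 0.39 (SE 0.07, adjusted p = 0.000118) and TUSC2 by 0.43 (SE 0.09, adjusted p = 0.000413). Of the 12 listed neighbours in the cluster, all 12 were tested in DU145, where 5 rose and 3 fell, with a median log2 fold change of 0. Calls over all genes there were 28.8% higher and 29.2% lower. SEMA3B, a secreted semaphorin, fell by 0.89, CYB561D2 fell by 0.73 and RASSF1, a tumour suppressor scaffold, rose by 0.69. In C4-2, 9 neighbours were tested, of which 0 rose and 3 fell (IFRD2, RASSF1 and GNAI2), with a median of 0.10. Calls over all C4-2 genes were 25.2% higher and 26.6% lower. HYAL1, the lysosomal hyaluronidase of the cluster, was the highest of the 3 per kilobase in DU145. Its level was 103 ± 2.51 CPM under palbociclib and 115 ± 4.57 CPM under DMSO (-0.13, SE 0.07, edgeR adjusted p = 0.104), while in C4-2 it had 0 to 2 counts per library.

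CEMIP (chromosome 15, 80779343 to 80951776, plus strand) binds hyaluronan and is needed for its breakdown by cells such as skin fibroblasts. It was the lowest member per kilobase in C4-2, with 4, 5 and 7 counts (1.38, 1.92 and 2.07 CPM) with palbociclib and 16 and 14 counts (4.58 and 4.64 CPM) with DMSO. The groups did not overlap, but so few counts give a wide error (-1.38, SE 0.44). In DU145 it had 1.03, 1.09 and 1.74 CPM with palbociclib and 1.68, 1.55 and 1.40 CPM with DMSO, and the groups overlapped (-0.23, SE 0.31, 95% interval -0.89 to 0.42, edgeR adjusted p = 0.537). Its relative CEMIP2, a cell-surface protein also tied to hyaluronan breakdown, fell in C4-2 to 111 ± 7.56 CPM with palbociclib, against 184 ± 2.43 CPM with DMSO (-0.77, SE 0.07, edgeR adjusted p = 1.73e-13). In DU145 CEMIP2 had 75.9 ± 4.46 CPM under palbociclib and 81.9 ± 1.99 CPM under DMSO (-0.09, SE 0.07, adjusted p = 0.311).

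CD44 (chromosome 11, 35138870 to 35232402, plus strand), the main surface receptor for hyaluronan, was the highest member per kilobase in C4-2 and came after UGDH in DU145. Under the C4-2 label it had 714, 725 and 750 CPM with palbociclib, against 837 and 843 CPM with DMSO. The groups were apart by a small step (-0.25, SE 0.03), which was -0.20 with library totals in place of TMM scaling. In DU145 it had 199, 196 and 189 CPM with palbociclib and 185, 187 and 193 CPM with DMSO, which overlap (0.07, SE 0.06, 95% interval -0.06 to 0.20, edgeR adjusted p = 0.321). Without both libraries numbered 3, the DU145 change was 0.11 and passed (adjusted p = 0.0331). Counts per gene do not separate the standard and variant exons of CD44.

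HMMR (chromosome 5, 163460203 to 163491945, plus strand), also called RHAMM, is a hyaluronan receptor that also sits on the mitotic spindle. In C4-2 it had 66.4, 80.1 and 67.8 CPM with palbociclib, against 117 and 94.8 CPM with DMSO. All palbociclib values were lower (-0.63, SE 0.09), at -0.47 without DMSO replicate 1. In DU145 it had 53.0, 55.9 and 46.3 CPM with palbociclib and 63.0, 68.4 and 50.4 CPM with DMSO, and replicate 3 was the lowest of each group. The change of -0.20 (SE 0.10, 95% interval -0.41 to 0.01) did not pass (edgeR adjusted p = 0.0886), but it passed under 4 alternatives. It was -0.23 with no filter on low counts (adjusted p = 0.0248) and -0.31 when DMSO replicate 3 was left out (adjusted p = 0.00606). Dropping replicate 3 of both groups gave -0.24 (adjusted p = 0.00294), and the replicate block left it at -0.20 (adjusted p = 0.00307).

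**Figure D2:**
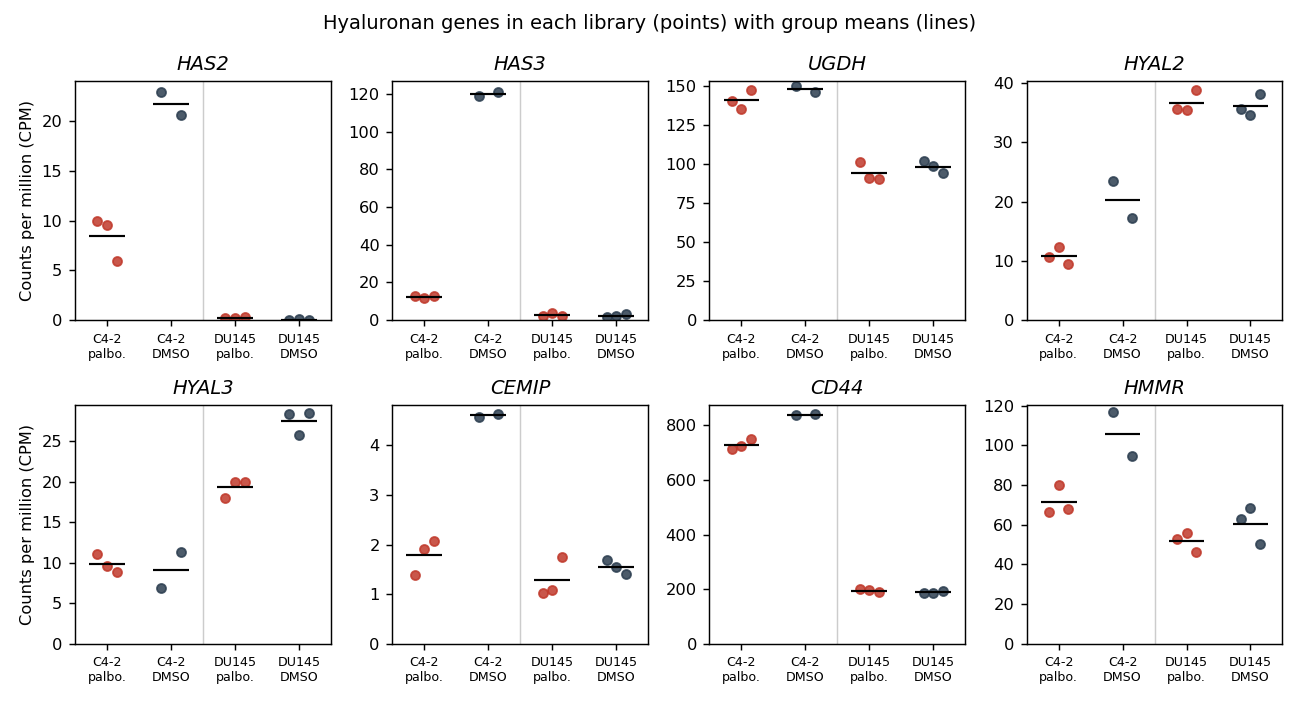
CPM of the 8 hyaluronan genes (vertical axis, linear and starting at 0, with its own scale in each panel) for each library, with palbociclib in red and DMSO in dark blue, and the group mean as a line. HAS3 in C4-2 stands at 11.5 to 13.0 CPM with palbociclib and at 119 and 121 CPM with DMSO, and in DU145 the groups are apart only for HYAL3 and for HAS2, which had 5 counts or fewer per library.

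Over the 8 members, 6 passed edgeR's threshold (adjusted p under 0.05) in the C4-2 libraries, all 6 lower with palbociclib, beside 51.8% of all 11943 genes tested there, 25.2% higher and 26.6% lower. Since HAS3 was chosen from that contrast, this count is a description and nothing is read from it. Their median log2 fold change was -0.81, beside 0.0015 over all genes. In DU145, 1 of 7 tested members passed, which was lower, beside 58.1% of all 15361 genes, 28.8% higher and 29.2% lower. The members' median there was -0.04, beside -0.0074 over all genes. The share of members that passed in DU145 was thus below that of all genes. Whether the response of a member differed between the lines was not tested.

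**Figure D3:**
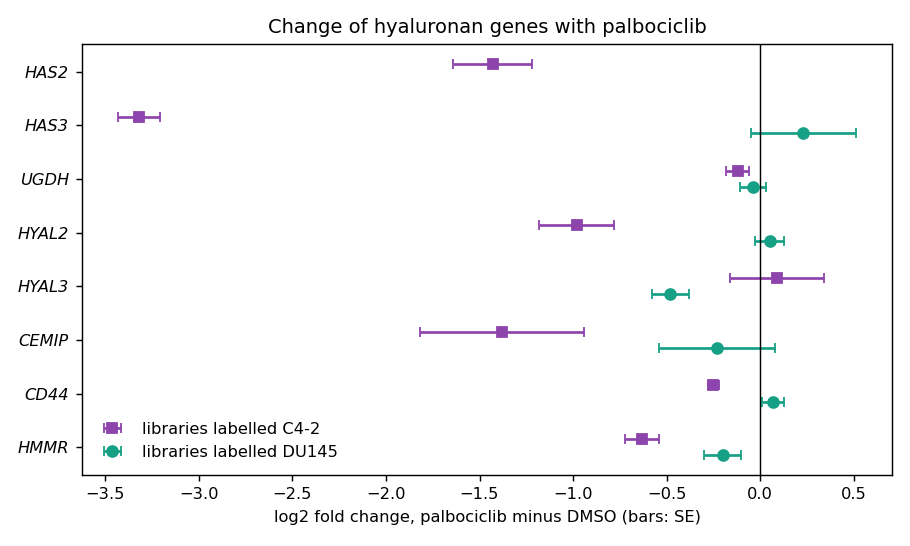
Log2 fold change (palbociclib minus DMSO, bars give the standard error) of each member in the libraries labelled C4-2 (squares) and DU145 (circles). Squares spread from -3.32 for HAS3 to 0.09 for HYAL3, and circles stay between -0.48 and 0.23. HAS2 has no circle because it was too low to enter the main DU145 fit.

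Ordered by level per kilobase, C4-2 libraries with palbociclib had CD44 at 72.9 ± 1.89, UGDH at 34.8 ± 1.51, HMMR at 18.2 ± 1.91 and HYAL3 at 4.85 ± 0.552 CPM per kb. HYAL2 (2.38 ± 0.308), HAS3 (2.33 ± 0.146) and HAS2 (2.03 ± 0.539) followed within each other's spread, and CEMIP was last at 0.235 ± 0.0473 CPM per kb. With DMSO the order was CD44 (84.0 ± 0.416), UGDH (36.6 ± 0.686), HMMR (26.9 ± 4.02) and HAS3 (22.7 ± 0.244), then HAS2 (5.19 ± 0.399), HYAL2 (4.48 ± 0.973) and HYAL3 (4.47 ± 1.53), whose ranges touch or overlap, and CEMIP (0.605 ± 0.00533). HAS3 thus stood between HYAL2 and HAS2 with palbociclib and between HMMR and HAS2 with DMSO. In DU145 the order was the same in both groups, from UGDH (23.2 ± 1.47 with palbociclib and 24.3 ± 0.961 with DMSO), CD44, HMMR, HYAL3 and HYAL2 (8.07 ± 0.414 with palbociclib and 7.93 ± 0.397 with DMSO) to HAS3 (0.521 ± 0.165 with palbociclib and 0.45 ± 0.15 with DMSO), CEMIP and HAS2. There HMMR and HYAL3 did not overlap with palbociclib, at 11.8 to 14.2 and 8.86 to 9.86 CPM per kb, and did with DMSO, at 12.8 to 17.4 and 12.7 to 14.0 CPM per kb.

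Genes with the pattern most like each of the 7 members tested in both lines, all but HAS2, were sought over all 11 libraries, by the root mean square difference of log2(CPM + 1) centred on each line, among 9526 genes with a mean of at least 5 CPM in each line. Nearest to HAS3 were E2F8 (0.271), RRM2 (0.291) and MCM10 (0.315), with log2 fold changes of -3.25, -2.84 and -2.81 in C4-2 and 0.22, -0.24 and -0.05 in DU145. HAS3 was listed for its C4-2 fall, so genes near it share a large C4-2 fall by construction, and nothing is read from them. Members were not held to the 5 CPM cut, and the added 1 shrinks the differences of low ones such as CEMIP. Nearest to CD44 were CHTOP (0.025), DDB1 (0.037) and EIF3D (0.041), and nearest to HMMR were HMGN3 (0.059), GNPTAB (0.086) and RPL7P1 (0.09). For UGDH they were REPS1 (0.045), CDV3 (0.047) and SETD2 (0.047), and for HYAL2 they were PRMT1 (0.067), NR2C2AP (0.089) and NT5DC2 (0.106). For HYAL3 they were CASP9 (0.098), FECH (0.1) and MRPL57 (0.101), and for CEMIP they were GATA2 (0.103), HGH1 (0.109) and PKN3 (0.11). Proliferation markers moved with the treatment in C4-2, as the 6 genes MKI67, TOP2A, CCNB1, PCNA, MCM2 and RRM2 summed to 703 to 742 CPM with palbociclib, against 2390 and 2400 CPM with DMSO. In DU145 they summed to 2160 to 2280 CPM with palbociclib and 2030 to 2130 CPM with DMSO, and they went both ways. MKI67 (0.36), CCNB1 (0.53) and MCM2 (0.40) were called higher there. TOP2A (-0.27) and RRM2 (-0.24) were called lower, and PCNA (-0.09) was not called. The 6 epithelial markers summed to 456 to 497 CPM with palbociclib and 1190 and 1200 CPM with DMSO in C4-2, and to 2070 to 2210 CPM with palbociclib and 3220 to 3560 CPM with DMSO in DU145. KRT8 averaged 566 CPM in C4-2 and 1520 CPM in DU145, whereas EPCAM averaged 1.18 and 0.887 CPM and CDH1 0.465 and 1.5 CPM. In the same order, KRT18 averaged 109 and 524 CPM, KRT7 1.9 and 691 CPM, and KRT19 86.4 and 0.0201 CPM. The 10 luminal markers summed to 45.6 to 49.4 CPM with palbociclib and 51.6 to 52.4 CPM with DMSO in C4-2, and to 22.8 to 23.6 CPM with palbociclib and 32.9 to 39.6 CPM with DMSO in DU145. The 6 leukocyte markers summed to 1.38 to 2.68 CPM with palbociclib and 2.29 to 2.65 CPM with DMSO in C4-2, with CD68 at 0, and to 3.21 to 4.23 CPM with palbociclib and 0.305 to 0.435 CPM with DMSO in DU145, with PTPRC, CD3E and MS4A1 at 0. In DU145 CD14 held 200 of the leukocyte marker counts over all 6 libraries, beside 4 of CD68 and 1 of LYZ. The part of these shifts in the members' values was not tested, and in bulk RNA fewer cells of a type and less transcript per cell cannot be told apart.

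Partners of HMMR on the spindle were called in both lines, and the difference between the lines was not tested. In C4-2, 10 of 11 were tested and all 10 fell, with a median log2 fold change of -1.20, beside 0.0015 over all genes. The shares called over all genes there were 25.2% higher and 26.6% lower. TPX2, which targets Aurora A to the spindle, fell to 192 ± 13.6 CPM with palbociclib, against 453 ± 1.25 CPM with DMSO (-1.28, SE 0.05, edgeR adjusted p = 4.24e-25). The mitotic kinase PLK1 (-1.66, SE 0.07), the kinesin KIF11 (-1.52, SE 0.08) and the microtubule polymerase CKAP5 (-0.84, SE 0.05) also fell. The change of HMMR itself, -0.63, was smaller than those of these 4, which were named for the smallest adjusted p. DYNLL1 alone of the tested partners fell by less than HMMR (-0.38, SE 0.05). In DU145 all 11 were tested, 7 rose and 2 fell, with a median of 0.29. The shares over all DU145 genes were 28.8% higher and 29.2% lower. TPX2 rose to 770 ± 32.4 CPM with palbociclib, against 462 ± 15.8 CPM with DMSO (0.76, SE 0.06, adjusted p = 4.63e-09), AURKA by 0.70 and the gamma-tubulin TUBG1 by 0.68, while BRCA1 fell by 0.68. NUSAP1 had 0 or 1 counts per library in C4-2 and was not tested there.

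CD44 linkers, sheddases and splicing factors went both ways, with 4 of 11 tested higher and 6 lower in C4-2 (median -0.23) and 3 of 11 higher and 3 lower in DU145 (median 0.06). All genes tested had 25.2% higher and 26.6% lower in C4-2, and 28.8% higher and 29.2% lower in DU145. Ezrin (EZR) and moesin (MSN), which tie the CD44 tail to actin, fell in C4-2 by 0.85 (SE 0.04) and 0.39 (SE 0.03). The ankyrin ANK2 rose there by 2.04 (SE 0.16, 47.0 ± 0.986 CPM with palbociclib and 10.9 ± 3.66 CPM with DMSO), and SPP1, osteopontin, a further CD44 ligand, by 0.68 (SE 0.04). The sheddase ADAM17 rose by 0.90 (SE 0.08, edgeR adjusted p = 8.02e-13). In DU145 EZR rose by 0.51 (SE 0.06), and MMP14, a membrane protease that cuts CD44, rose by 3.0 on the log2 scale (SE 0.49, adjusted p = 4.32e-05) to a level of 1.51 ± 0.426 CPM, against 0.186 ± 0.108 CPM with DMSO (19 to 33 counts with palbociclib and 1 to 4 with DMSO). The ankyrin ANK1 fell by 0.90 (SE 0.22) in DU145. ESRP2, an epithelial splicing factor, fell by 0.38 there and had 0 to 2 counts per library in C4-2.

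Enzymes of UDP-sugar supply were all tested, and 6 of 16 rose and 4 fell in C4-2 (median -0.05), with 8 of 16 higher and 4 lower in DU145 (median 0.20). Calls over all genes tested were 25.2% higher and 26.6% lower in C4-2, and 28.8% higher and 29.2% lower in DU145. The list counts were not tested against those shares, and nothing is read from them. GFPT1, the entry enzyme of hexosamine synthesis, rose by 0.66 in C4-2 (SE 0.06, 272 ± 14.6 CPM with palbociclib and 167 ± 1.3 CPM with DMSO, edgeR adjusted p = 2.67e-13). It fell by 0.68 in DU145 (SE 0.07, 182 ± 13.3 CPM with palbociclib and 295 ± 21.4 CPM with DMSO, adjusted p = 2.48e-07). GNPDA1, which turns glucosamine-phosphate back to fructose-phosphate, rose in both, by 0.91 (SE 0.10) in C4-2 and by 2.25 (SE 0.07) in DU145. PGM3 rose by 0.61 and GPI fell by 0.71 in C4-2, and UAP1L1 rose by 1.47 and AMDHD2 by 1.02 in DU145. UGP2, which makes the UDP-glucose that UGDH uses, fell by 0.20 in C4-2 (SE 0.08, adjusted p = 0.0366) and changed by -0.11 in DU145 (SE 0.08, adjusted p = 0.269).

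Among the other enzymes that spend UDP-glucuronate or UDP-N-acetylglucosamine, 20 of 21 were tested in each line. In C4-2, 8 rose and 3 fell (median 0.11), which with DESeq2 became 6 and 1, and in DU145 6 rose and 9 fell (median -0.08). As shares of all genes tested by edgeR, 51.8% were called in C4-2 and 58.1% in DU145. Nothing is read from these list counts either. OGT, which adds single N-acetylglucosamine units to proteins inside the cell, rose by 1.07 in C4-2 (SE 0.03, 1510 ± 40.8 CPM with palbociclib and 699 ± 3.76 CPM with DMSO) and fell by 0.56 in DU145 (SE 0.06, 471 ± 33.9 CPM with palbociclib and 708 ± 44.5 CPM with DMSO). CHPF (0.79) and CHPF2 (0.35) of chondroitin synthesis and EXT1 (0.23) of heparan sulfate synthesis rose in C4-2. In DU145 CSGALNACT1, which starts chondroitin chains, fell by 0.68, B4GALT7 of the linker fell by 0.79 and B3GALT6 of the linker rose by 0.47.

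Of the 6 genes of the lysosomal end of hyaluronan breakdown, 5 rose and 1 fell in C4-2 (median 0.55), and 4 rose and 1 fell in DU145 (median 0.50). Among all genes tested, 51.8% were called in C4-2 and 58.1% in DU145. HEXA, a lysosomal enzyme subunit that acts on terminal N-acetylglucosamine, rose by 0.83 (SE 0.15) in C4-2 and by 0.46 (SE 0.09) in DU145. LAMP1, a lysosomal membrane protein, rose by 0.56 and 0.53, and the protective protein CTSA by 0.54 and 0.97, in C4-2 and DU145 in that order. GM2A, the activator of HEXA, rose by 0.59 in C4-2 and stood at 0.03 in DU145 (SE 0.09, edgeR adjusted p = 0.765). GUSB, which removes terminal glucuronate, was the gene that fell, by 0.45 (SE 0.12, edgeR adjusted p = 0.00262) in C4-2 and by 0.25 (SE 0.07, adjusted p = 0.00681) in DU145.

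Of 16 proteins that bind hyaluronan in the matrix, 5 were tested in C4-2 and 1 in DU145. For this list and the next, the shares called over all genes were 51.8% in C4-2 and 58.1% in DU145. Versican (VCAN), a large proteoglycan that crosslinks hyaluronan, fell in C4-2 to 411 ± 13.9 CPM with palbociclib, against 822 ± 7.96 CPM with DMSO (-1.05, SE 0.04, edgeR adjusted p = 1.91e-26). It had 0 or 1 counts per library in DU145. The list median was 0.17 in C4-2, with VCAN the 1 gene that fell and 0 that rose. BCAN, brevican, rose in DU145 by 1.01 (SE 0.21, adjusted p = 0.000473), to 4.44 ± 0.65 CPM under palbociclib, against 2.24 ± 0.308 CPM under DMSO. Of 13 other synthases, hyaluronidases and receptors, 4 were tested in C4-2. CEMIP2 and HABP4 (-0.33, SE 0.12, edgeR adjusted p = 0.0217) fell there and 0 rose (median -0.33). In DU145 6 were tested, where STAB2 (1.79, SE 0.50) and TLR4 (1.14, SE 0.22) rose and 0 fell (median -0.11). Both were low, with STAB2 at 14 to 21 counts with palbociclib and 1 to 8 with DMSO. TLR4 had 71 to 89 counts with palbociclib and 27 to 45 with DMSO. With the filter at 5 CPM, 0 genes of this list were called in DU145, because STAB2 and TLR4 were removed before that test. Both were called higher in all 12 alternatives that tested them. The HABP4 call was lost with library totals, with DESeq2, with the replicate block, without palbociclib replicate 3 and without DMSO replicate 1. The receptor LYVE1 was at 0 counts in all 11 libraries.

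**Figure D4:**
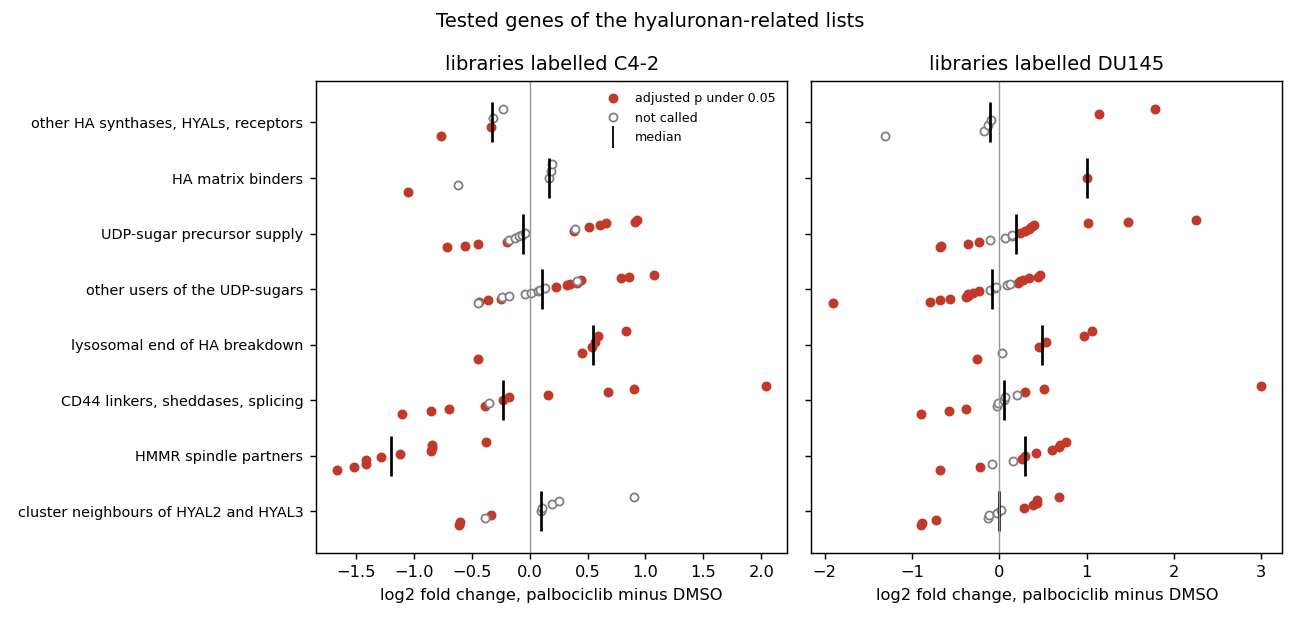
Log2 fold change (palbociclib minus DMSO) of each tested gene in the 8 hyaluronan-related lists, with the libraries labelled C4-2 on the left and those labelled DU145 on the right. Filled points have an edgeR adjusted p under 0.05, open points do not, and black bars are list medians, of which the spindle partners of HMMR stand at -1.20 in C4-2 and at 0.29 in DU145.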

How the data were processed

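The RNA-seq values are raw gene counts as the authors deposited them, in one table per line. The C4-2 counts came from featureCounts 2.0.1, run in paired mode without a strand option against Ensembl 107 exons, and the alignment names refer to HISAT, per the file headers. How the deposited DU145 counts were made is not given in the sources used here, and the build, per the submitters' processing notes, is hg38. Per the labels, the library kit is directional. Gene lengths and coordinates are those of the deposited DU145 table, and the same lengths were used for C4-2 values per kilobase. Exon overlaps are from GENCODE 29 on GRCh38, whose ends and exon lengths were identical to that table's for all 8 members.

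Each line was fitted alone with edgeR 4.0.16 in R 4.3.3 (filterByExpr by group, TMM, quasi-likelihood F test, Benjamini-Hochberg at 0.05 over all genes tested). CPM used library totals. In data simulated for each line, with 200 genes changed 2-fold, 91% were recovered, beside 6 false calls in C4-2 and 20 in DU145. The changed genes were drawn from those with a mean of at least 20 counts. Far fewer genes were changed than were called in the real data. The share recovered thus does not cover low members such as CEMIP in C4-2. Alternatives were RLE size factors, library totals, DESeq2 1.42.0, no filter, a filter at 5 CPM, each library left out in turn, the replicate block and DU145 without both libraries numbered 3.

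The members and the lists were chosen with earlier results of these data known. Named genes are all members, up to 4 called genes per list and line with the smallest adjusted p, and the nearest 3 genes to each member tested in both lines. Overlapping genes follow from the annotation. HAS1, LYVE1, ADAM17, UGP2, HYAL1, CEMIP2 in DU145, GUSB, NAA80, TUSC2, NUSAP1, DYNLL1 in C4-2, ESRP2 in C4-2 and VCAN in DU145 were added after their values were seen. The values of 1 listed gene are not reported here. No label states that the libraries of a group are separate cultures. The p-values may thus reflect technical spread only. The planned C4-2 fit of 3 against 3 became 3 against 2 because DMSO replicate 3 held no counts.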

Additional observations from a re-analysis of the deposited data

Results flagged for a closer look

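HAS2 stood out because every palbociclib library lay below every DMSO library under the C4-2 label and above every DMSO library under the DU145 label. Its mean was 8.51 CPM with palbociclib and 21.7 CPM with DMSO in C4-2, and 0.241 CPM with palbociclib and 0.0206 CPM with DMSO in DU145. The DU145 values rest on 12 counts against 1 count, and HAS2 was not called higher in DU145 with no filter on low counts. The difference between the lines was not tested.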

How the results depend on the processing

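The number of members called in DU145 was 1, and it was 2 with no filter, 2 with the replicate block, 3 without both libraries numbered 3, and 1 to 2 when one library was left out. The added calls were HMMR and, in the last-named pair removal, CD44. In C4-2 it was 5 to 6 over all alternatives. Over all genes the calls ran from 4155 (DESeq2) to 6178 in C4-2 and from 7405 (filter at 5 CPM) to 9953 (replicate block) in DU145. HAS3 in DU145 ran from -0.04 to 0.55 when one library was left out, with the negative value without palbociclib replicate 2, and the cause was not tested. HAS3 in C4-2 stayed between -3.36 and -3.27, HAS2 between -1.57 and -1.19 and HYAL2 between -1.19 and -0.74. The replicate numbers were not used as pairs in the main fit. Deviations of same-numbered libraries correlated at 0.02, 0.0357 and 0.128 in DU145 and at 0.00673 and 0.0291 in C4-2. The DU145 value of 0.128 is for the libraries numbered 3. Palbociclib replicate 3 correlated at -0.0503 and -0.0874 with DMSO replicates 1 and 2. Whether the libraries numbered 3 share an effect was not tested. With 2 DMSO libraries, C4-2 deviations are mirror images, so the check cannot decide there. With the block, the DU145 calls over all genes were 9953 in place of 8924, the C4-2 calls were 5699 in place of 6184, and not every DU145 library correlated best with its own number. In 9 of 192 list counts the value moved by over 1.5 times, among them the other users of UDP-sugars in C4-2, with 7 called with DESeq2 in place of 11. With 2 DMSO libraries and totals of 2608851 to 3489659, C4-2 values of CEMIP and HYAL3 are the least precise.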
